A study of Mus musculus with 24 samples.

Results

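Enzymes of the tricarboxylic acid (TCA) cycle were followed in mouse brown and white fat cells in primary culture, as 9 genes: Cs, Idh2, Idh3a, Idh3g, Ogdh, Sucla2, Suclg1, Fh1 and Mdh2. They were taken as every probe set of the Affymetrix Murine Genome U74Av2 array that is annotated to one of these symbols alone, which gave 12 probe sets for 9 genes, of 12488 probe sets in all. The series holds 24 arrays of 1 sample each: brown cells at day 7 of culture (n = 5), brown cells at day 4 (n = 5), white cells at day 7 (n = 6) and white cells at day 4 (n = 8). Cells labelled as non differentiated were collected at day 4 and differentiated ones at day 7. No label gives a strain, genotype or animal age, and none says that replicate arrays stand for different mice or dishes. P-values therefore reflect array-to-array spread alone, part or all of which may be technical. Arrays are named by group and by the number in their label.

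The TCA cycle runs in the mitochondrial matrix, where it oxidises the acetyl group of acetyl-CoA and passes the electrons to the respiratory chain. Citrate synthase (Cs) opens the cycle, isocitrate dehydrogenases and the alpha-ketoglutarate dehydrogenase complex carry out its decarboxylations, succinyl-CoA ligase yields ATP or GTP, and fumarase and malate dehydrogenase regenerate oxaloacetate. Brown fat is rich in mitochondria and oxidises fuel to make heat, while white fat draws on mitochondrial citrate as a source of carbon for lipid synthesis.

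Values are MAS5 signals on a linear scale, or their log2. Differences are log2 differences ± standard error from limma, and a gene was called when its Benjamini-Hochberg adjusted p, over all 8397 probe sets tested, was under 0.05. Of the 12 probe sets, 10 passed the filter on low values. Where a gene had several tested probe sets, the brightest on average stood for it, here and among all 6281 genes tested. None of these 9 probe sets lay at the floor (a signal of 8.21) on any array. The second Idh3a probe set reached a signal of 11.4 at most and the second Idh3g probe set 37.2, and neither was tested. The second Sucla2 probe set, also dim (lowest signal 6.23), was tested and was not called in any comparison (adjusted p at least 0.299).

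Adipocyte and lineage markers followed the labels in part. The signal of Adipoq, which encodes adiponectin, was at least 733 on every array. Of 5 adipocyte markers tested (6 listed), 2 rose by day in brown cells and 4 in white cells. Their summed signal was 9700 to 10920 at brown day 7 and 4559 to 8650 at brown day 4, against 10770 to 13320 at white day 7 and 4816 to 8185 at white day 4. The part of this change in the members' day differences was not tested. Between cell types these markers split. Cidec, a lipid droplet protein, was lower in brown by -2.05 at day 7 and -1.85 at day 4, and Lpl, lipoprotein lipase, was lower by -0.53 at day 7. Pparg, the adipogenic nuclear receptor, was higher 1.88-fold at day 7 and 2.25-fold at day 4. Of 5 brown markers listed, 4 were tested, and all 4 were called higher in brown on both days. Of 4 white markers tested, 3 were called lower in brown on both days and 0 higher. Cox8b, a brown marker, also rose by day in both cell types, by 2.68 ± 0.44 in brown and 2.05 ± 0.37 in white cells. Zic1, a brown lineage factor, lay at the floor on all 14 white arrays and on none of the 10 brown arrays. Ucp1, which uncouples respiration in brown fat, did not pass the filter, with a median signal of 53.1 at brown day 7 and 19.4 at brown day 4, against 8.71 at white day 7 and 5.34 at white day 4. All brown array numbers precede all white ones, so a difference in handling and the cell type cannot be told apart. The Gapdh 3' over 5' signal ratio, which grows as RNA degrades, averaged 0.889 ± 0.0379 on the 5 arrays of brown day 7 and 0.884 ± 0.0825 on the 5 of brown day 4. It averaged 1.36 ± 0.204 on the 6 arrays of white day 7 and 0.943 ± 0.0955 on the 8 of white day 4 (all SD). White day 7 therefore stands apart in this ratio, and the members' differences from it are given below with and without the ratio in the fit. The other lists, the signal ratios and the genes alike in profile were compared without it.

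Promoter windows of 300 bases (250 before and 50 after the annotated start, RefSeq on GRCm38.p6) were matched for 8 of the 9 genes, all but Idh3a. Stretches of 120 bases just before the start are shown for the paired subunits of succinyl-CoA ligase, Sucla2 and Suclg1, which form 1 enzyme, and for Idh3g, the sole gene with a single annotated start whose window held one of the 3 motif cores searched. Sucla2 lies at chr14:73552666-73552785 (plus strand), Suclg1 at chr6:73248385-73248504 (plus strand) and Idh3g at chrX:73786898-73787017 (minus strand). Capitals mark the motif core.
Sucla2: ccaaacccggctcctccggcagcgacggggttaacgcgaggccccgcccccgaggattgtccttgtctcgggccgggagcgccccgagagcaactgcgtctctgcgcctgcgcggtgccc
Suclg1: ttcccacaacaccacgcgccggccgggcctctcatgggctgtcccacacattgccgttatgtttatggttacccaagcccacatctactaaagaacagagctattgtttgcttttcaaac
Idh3g: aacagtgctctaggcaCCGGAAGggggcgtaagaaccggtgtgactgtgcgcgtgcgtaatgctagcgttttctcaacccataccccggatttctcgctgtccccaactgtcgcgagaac
The cores were AAGGTCA (oestrogen-related receptors), GCGCATG (NRF1) and CCGGAAG (GABP and other ETS factors), sought on both strands. CCGGAAG stood in the window of Idh3g, 104 to 98 bases before the start, and in 8.86% of all 32851 windows. Ogdh has 6 annotated windows, of which 1 held AAGGTCA and 2 overlapping ones held the same GCGCATG match. Of all genes, 5.38% held AAGGTCA and 4.41% held GCGCATG in any of their windows (4.72% and 3.91% of all windows). The other 6 genes held none of these letters in their windows. GC content was highest for Idh2 (68.3%), and only the Suclg1 window lay below the median of all windows (52.7%). The stretches printed for Sucla2 and Suclg1 share no motif core, and a match is a description of letters, not a site.

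All 9 enzymes were higher in brown than in white cells at day 7, by 1.47-fold (Ogdh) to 2.21-fold (Idh2), and 8 of the 9 at day 4, by 1.51-fold (Sucla2, Fh1) to 1.70-fold (Idh3a). Over all genes tested, 25.5% were called at day 7 and 13.2% called higher in brown, while 24.5% were called at day 4 and 11.7% called higher. The median difference over the 9 genes was 0.80 at day 7 and 0.66 at day 4 on the log2 scale, beside 0.0015 and 0.012 over all 6281 genes. At day 7 the brown and white arrays did not overlap for 8 of the 9 genes (8.9% of all genes, higher in brown), and at day 4 for 4 of the 9 (3.63%). In bulk RNA, fewer cells of a type and less RNA per cell cannot be told apart. With the Gapdh ratio in the fit, 5 of the 9 kept their call at day 7 (Cs, Idh2, Idh3a, Ogdh and Mdh2), where 274 of all probe sets passed against 2112 without it, and the 9 differences lay between 0.72 (Idh3g) and 1.41 (Idh3a). Those that kept their call besides Idh3a measured 1.18 (Cs), 1.14 (Idh2), 0.97 (Ogdh) and 0.81 (Mdh2).

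**Figure D1:**
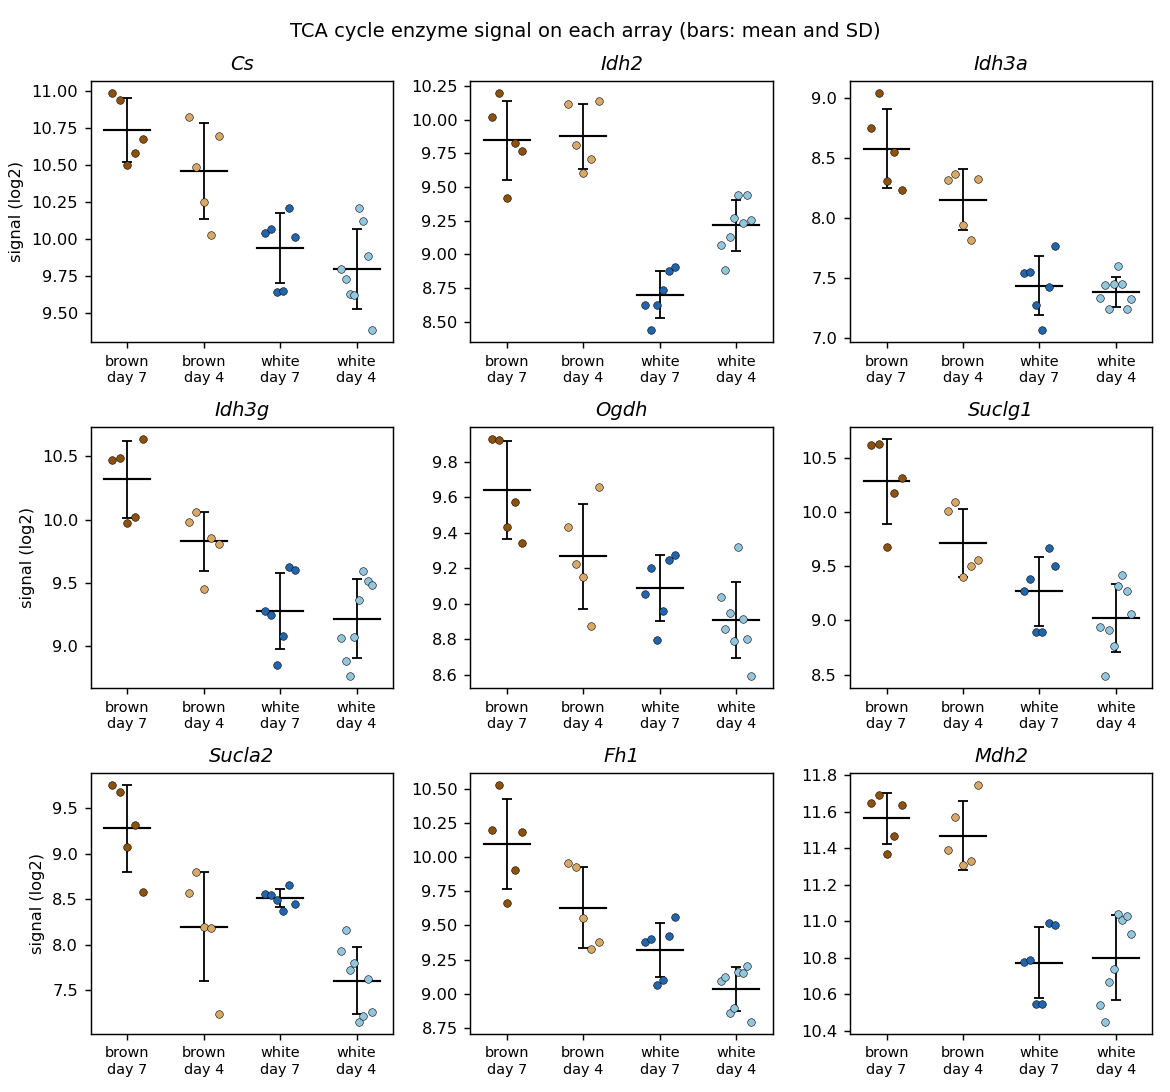
Log2 signal of each TCA cycle enzyme on every array, by group, with the group mean and SD as bars. At day 7 the brown arrays lie above all white arrays for every gene but Sucla2, where brown array 22 (signal 382) falls among the white ones.

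Entry and isocitrate steps come first. Citrate synthase (Cs), which joins acetyl-CoA to oxaloacetate, had signals of 2031, 1966, 1446, 1527 and 1646 on brown day 7 arrays 07, 08, 11, 12 and 22, against 798 to 1186 (median 1042) on the 6 white day 7 arrays. Every brown array lay above every white one, a difference of 0.80 ± 0.16 (adjusted p = 0.000438). At day 4 Cs had 1819, 1434, 1216, 1044 and 1663 on brown arrays 05, 06, 09, 10 and 19, against 667 to 1182 (median 870) on the 8 white arrays. Brown array 10 fell inside the white range, and the difference was 0.66 ± 0.15 (adjusted p = 0.00175).

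Idh2, the NADP-dependent mitochondrial isocitrate dehydrogenase, had one of the wider gaps at day 7. Its signals were 1036, 1180, 686, 910 and 870 on brown day 7 arrays 07, 08, 11, 12 and 22, against 346 to 480 (median 410) on white day 7 arrays. At day 4 they were 1115, 898, 779, 837 and 1132 on brown arrays 05, 06, 09, 10 and 19, against 472 to 697 (median 606) on white arrays. The groups did not overlap on either day, with differences of 1.15 ± 0.14 at day 7 (adjusted p = 7.86e-07) and 0.66 ± 0.13 at day 4 (adjusted p = 0.000523).

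The NAD-dependent isocitrate dehydrogenase is built from the catalytic subunit Idh3a and further subunits that include Idh3g, which has a regulatory role. Idh3a had 431, 528, 318, 374 and 302 on brown day 7 arrays 07, 08, 11, 12 and 22, against 134 to 218 (median 179) on white day 7 arrays. At day 4 it had 319, 331, 246, 226 and 320 on brown arrays 05, 06, 09, 10 and 19, against 151 to 194 (median 167) on white arrays. The groups were separate on both days, by 1.14 ± 0.15 at day 7 (adjusted p = 2.56e-06) and 0.77 ± 0.14 at day 4 (adjusted p = 0.000254). Idh3g had 1419, 1442, 1005, 1035 and 1594 on brown day 7 arrays 07, 08, 11, 12 and 22, against 462 to 790 (median 614) on white day 7 arrays, a difference of 1.04 ± 0.17 (adjusted p = 6.05e-05) with no overlap. At day 4 it was higher by 0.61 ± 0.16 (adjusted p = 0.00632), with 1010, 1068, 701, 925 and 896 on brown arrays 05, 06, 09, 10 and 19, against 434 to 772 (median 599) on white arrays. Only brown array 09 fell inside the white range. The Idh3g difference at day 7 was 0.72 with the Gapdh ratio in the fit, where its call ended (adjusted p = 0.189).

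Ogdh encodes the component of the alpha-ketoglutarate dehydrogenase complex that carries out the decarboxylation, and had the smallest difference of the 9 on both days without the Gapdh ratio in the fit. With the ratio its day 7 difference was 0.97, above those of Idh3g, Mdh2, Fh1 and Sucla2. Its signals were 976, 971, 692, 763 and 649 on brown day 7 arrays 07, 08, 11, 12 and 22, against 445 to 620 (median 560) on white day 7 arrays, without overlap (0.55 ± 0.15, adjusted p = 0.00631). At day 4 the ranges overlapped, with 690, 598, 569, 469 and 807 on brown arrays 05, 06, 09, 10 and 19, against 386 to 640 (median 473) on white arrays. The difference of 0.36 ± 0.14 was not called (adjusted p = 0.0588). That call was made without brown day 4 array 10 (adjusted p = 0.0227) or without white day 4 array 41 (0.0256).

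Succinyl-CoA ligase pairs the alpha subunit Suclg1 with a beta subunit, either the ADP-using Sucla2 or the GDP-using Suclg2. Suclg1 had 1579, 1580, 816, 1151 and 1273 on brown day 7 arrays 07, 08, 11, 12 and 22, against 474 to 812 (median 643) on white day 7 arrays. Brown array 11, the lowest, lay just above the white arrays, and the difference was 1.02 ± 0.19 (adjusted p = 0.000274). At day 4 Suclg1 was higher by 0.69 ± 0.18 (adjusted p = 0.00561), with 1034, 1092, 677, 726 and 753 on brown arrays 05, 06, 09, 10 and 19, against 359 to 684 (median 511) on white arrays. Brown array 09 alone lay within the white range. With the Gapdh ratio in the fit the day 7 difference was 1.09 and the call ended (adjusted p = 0.0711).

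The difference of Sucla2 between cell types passed narrowly. Its signals were 859, 820, 540, 638 and 382 on brown day 7 arrays 07, 08, 11, 12 and 22, against 330 to 405 (median 367) on white day 7 arrays, and 0.77 ± 0.23 separated the means (adjusted p = 0.0144). That call ended without brown day 7 array 07 (0.65, adjusted p = 0.0550) and with the Gapdh ratio in the fit (0.88, adjusted p = 0.265). At day 4 the signals were 381, 447, 293, 290 and 152 on brown arrays 05, 06, 09, 10 and 19, against 143 to 286 (median 204) on white arrays. Brown array 19 was the low one, and the difference of 0.59 ± 0.22 only just passed (adjusted p = 0.0474). It missed the threshold when any 1 of 18 arrays was left out (adjusted p at most 0.175). In brown cells these were 05, 06, 09 and 10 at day 4 or 11 and 12 at day 7. In white cells they were 37, 38, 41, 42, 45 and 51 at day 4 or 35, 36, 39, 40, 43 and 44 at day 7. The name of the Sucla2 probe set carries the suffix for sequences shared within a gene family, so it may also bind related transcripts. The dim second Sucla2 probe set did not show this difference. It measured 0.068 ± 0.36 at day 7 and -0.16 ± 0.33 at day 4, brown minus white, and was not called. The Sucla2 difference between cell types therefore rests on the brighter probe set alone.

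The closing steps are fumarase (Fh1), which hydrates fumarate to malate, and the mitochondrial malate dehydrogenase (Mdh2). Fh1 had 1173, 1482, 811, 958 and 1157 on brown day 7 arrays 07, 08, 11, 12 and 22, against 536 to 758 (median 672) on white day 7 arrays. At day 4 it had 996, 973, 752, 643 and 666 on brown arrays 05, 06, 09, 10 and 19, against 445 to 589 (median 553) on white arrays. Brown and white were separate on both days, by 0.77 ± 0.15 at day 7 (adjusted p = 0.00031) and 0.59 ± 0.14 at day 4 (adjusted p = 0.00243), and the day 7 call ended at 0.83 with the Gapdh ratio in the fit (adjusted p = 0.0756).

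Mdh2 had the tightest brown day 7 values, 3203, 3306, 2641, 2835 and 3191 on arrays 07, 08, 11, 12 and 22, against 1495 to 2040 (median 1763) on white day 7 arrays. Its brown day 4 signals were 2681, 3031, 2532, 2569 and 3436 on arrays 05, 06, 09, 10 and 19, against 1394 to 2103 (median 1830) on white day 4 arrays. Neither day showed any overlap, and the differences were alike in size at 0.79 ± 0.13 on day 7 (adjusted p = 4.06e-05) and 0.67 ± 0.12 on day 4 (adjusted p = 0.000176).

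**Figure D2:**
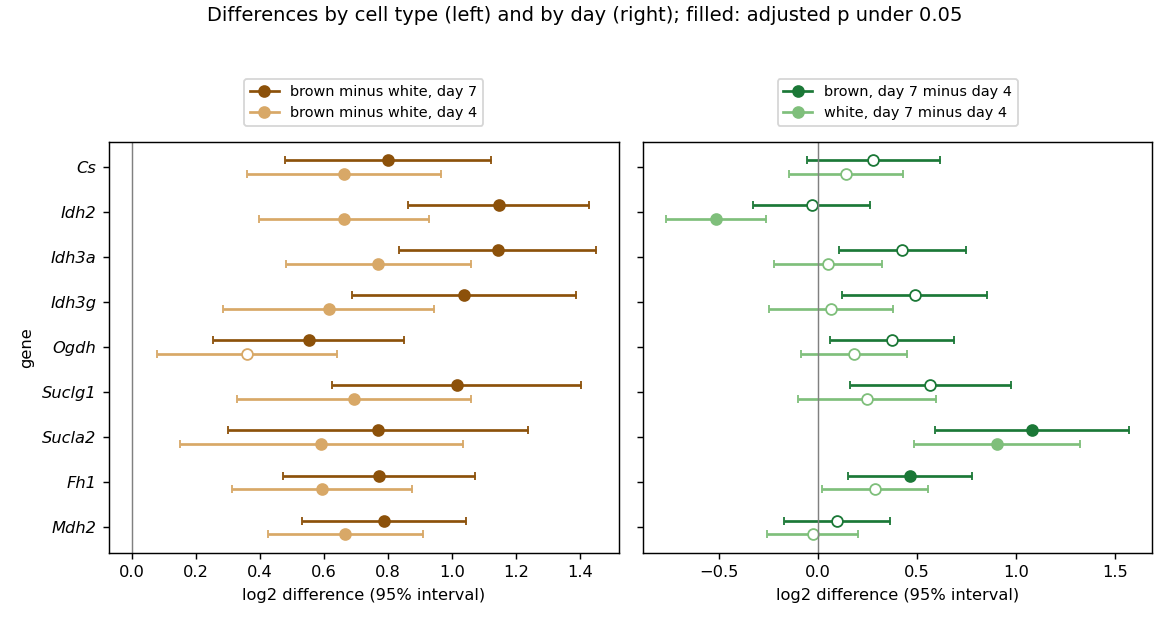
Log2 differences with 95% intervals for each gene, by cell type on the left (brown minus white at day 7 and at day 4) and by day on the right (day 7 minus day 4 in brown and in white cells); filled points passed the adjusted threshold of 0.05. All 9 genes are filled at day 7 on the left, while on the right Sucla2 is filled in both cell types, Fh1 in brown and Idh2, below 0, in white cells.

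Other enzymes of the cycle were tested for 7 of 9 listed genes, and all 7 were higher in brown cells at day 7 and 5 of 7 at day 4 (median differences 0.90 and 0.68). The succinate dehydrogenase subunit genes Sdhd and Sdhb were higher by 1.51 ± 0.16 and 1.29 ± 0.18 at day 7, beyond the range of the 9 members, and Dlst and Dld, the other components of the alpha-ketoglutarate dehydrogenase complex, by 0.96 ± 0.16 and 0.90 ± 0.23. Of 7 tested genes of pyruvate entry, 3 were higher in brown at day 7, Pdk4, a kinase that inhibits pyruvate dehydrogenase, by 1.51 ± 0.31 and the pyruvate dehydrogenase subunit genes Pdhb and Pdha1 by 1.10 ± 0.20 and 0.47 ± 0.13. None of the 6 cytosolic counterparts and citrate export genes was called higher in brown on either day, though 3 of the 6 measured above 0 on each day. At day 7 the lipogenic enzymes Me1 (malic enzyme) and Acly (ATP citrate lyase) were lower in brown, by -1.41 ± 0.24 and -0.63 ± 0.19. Me1 was also lower in brown at day 4, by -0.72 ± 0.23.

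Genes of general mitochondrial upkeep were listed as well. Of 10 tested housekeeping genes of the organelle, 5 were higher in brown at day 7 and 1 lower (median 0.53), and 6 higher and 1 lower at day 4 (median 0.47). The chaperone gene Hspd1 was higher by 0.87 ± 0.22 and the carrier gene Slc25a5 by 0.97 ± 0.18 at day 7, and the outer membrane channel gene Vdac2 was lower by -0.77 ± 0.18. Of 8 amino acid and anaplerotic genes tested, 0 were called at day 7 and 1 was higher in brown at day 4 (Slc25a10, a dicarboxylate carrier, 0.53 ± 0.17). Among 5 tested regulators, Esrra, which encodes an oestrogen-related receptor that drives mitochondrial genes, was higher in brown at day 7 by 0.81 ± 0.22 (adjusted p = 0.00762) and was not called at day 4 (0.47 ± 0.21, adjusted p = 0.104).

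**Figure D3:**
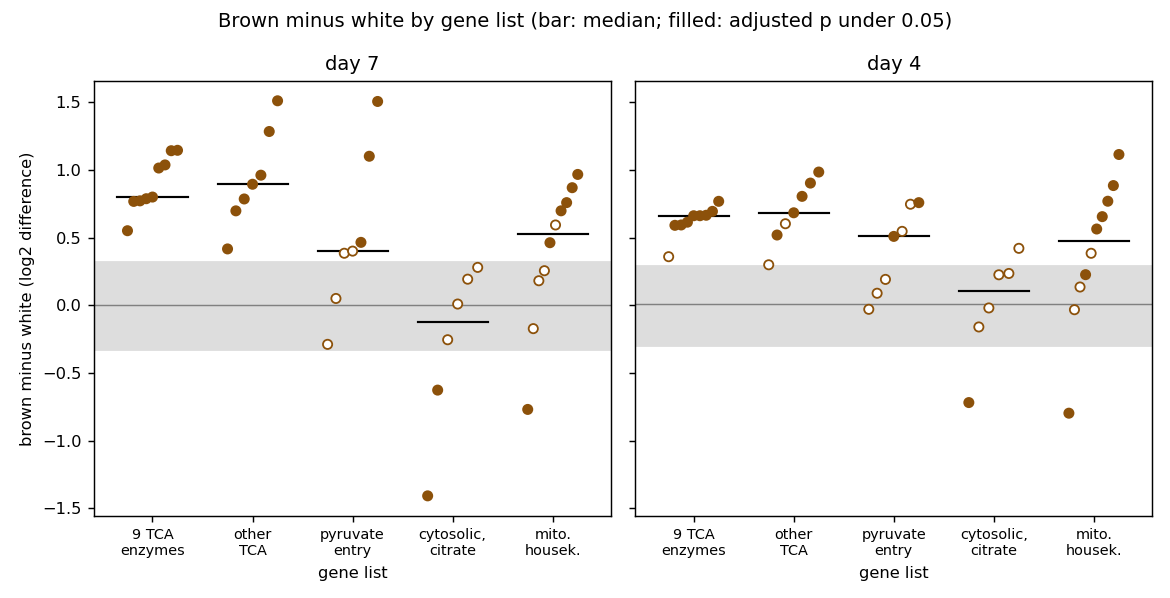
Brown minus white log2 difference of each tested gene in 5 lists, at day 7 and at day 4; bars are list medians, filled points passed the adjusted threshold, and the grey band spans the 25th to 75th percentile of all 6281 genes. The 9 TCA enzymes lie above the band on both days, and no cytosolic or citrate export gene is filled above 0.

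Markers of other cells also differed between the groups, and their part in the result was not tested. Striated muscle markers (7 of 8 tested) were called higher in brown for 2 genes and lower for 1 at day 7, and higher for 4 and lower for 0 at day 4. Their summed signal was 553 to 613 at brown day 7 and 853 to 1363 at brown day 4, against 250 to 525 at white day 7 and 254 to 369 at white day 4. Endothelial markers (4 of 5 tested, 2 called higher in brown on each day) summed to 338 to 548 at brown day 7 and 196 to 372 at brown day 4, against 73.2 to 215 at white day 7 and 104 to 250 at white day 4. Macrophage markers (3 of 5 tested, 2 lower in brown on each day) summed to 122 to 251 at brown day 7 and 102 to 143 at brown day 4, against 212 to 551 at white day 7 and 130 to 576 at white day 4. Erythrocyte markers (2 of 5 tested) were not called. No tested marker of these 4 lists lay at the floor on all arrays of a group.

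In brown cells, Sucla2 and Fh1 rose between day 4 and day 7, and the other 7 members were not called, where 13% of all genes were called and 6.46% called higher. Sucla2 rose 2.11-fold (1.08 ± 0.24, adjusted p = 0.00331). All day 7 arrays but array 22 lay above all day 4 arrays. The dim second Sucla2 probe set measured 0.64 ± 0.37 and was not called (adjusted p = 0.299), so this call rests on the brighter probe set. Fh1 rose 1.38-fold (0.46 ± 0.15, adjusted p = 0.0443). Its day 7 range of 811 to 1482 overlapped the day 4 range of 643 to 996. The median over the 9 genes was 0.43, beside 0.017 over all genes, and none of the 9 had separate day 7 and day 4 arrays (4.44% of all genes, higher at day 7).

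Several brown values lay near the threshold. Suclg1 measured 0.57 ± 0.20 (adjusted p = 0.0614), Idh3g 0.49 ± 0.18 (0.0735), Idh3a 0.43 ± 0.16 (0.0756), Ogdh 0.37 ± 0.15 (0.115), Cs 0.28 ± 0.16 (0.302), Mdh2 0.096 ± 0.13 (0.716) and Idh2 -0.031 ± 0.14 (0.934). Unadjusted, 6 of the 9 had a limma p under 0.05, but the share of all genes under that level was not counted, so this number cannot be judged against it. The Fh1 call ended when any 1 of 10 arrays was left out (adjusted p up to 0.160). These were 09, 10 or 19 of brown day 4, 07, 08, 12 or 22 of brown day 7, and 35, 36 or 43 of white day 7. Leaving out brown day 7 array 11 raised the number called to 4, as Suclg1 (adjusted p = 0.0160) and Idh3g (0.0449) then passed. Suclg1 also passed without brown day 4 array 05 (0.0464) or 06 (0.0331) or white day 4 array 34 (0.0464), and Idh3a without brown day 7 array 22 (0.0316).

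In white cells the members moved in both directions. Sucla2 rose 1.87-fold (0.90 ± 0.20, adjusted p = 0.00318). Its arrays did not overlap, with 330 to 405 (median 367) at day 7 against 143 to 286 (median 204) at day 4. The dim second Sucla2 probe set measured 0.41 ± 0.32 here and was not called (adjusted p = 0.399). Idh2 fell to 0.70 times its day 4 signal (-0.52 ± 0.12, adjusted p = 0.00459), with 346 to 480 (median 410) at day 7 against 472 to 697 (median 606) at day 4. The ranges overlapped only between the highest day 7 array, 44, and the lowest day 4 array, 34. The remaining 7 were not called, from Fh1 at 0.29 ± 0.13 (adjusted p = 0.125) to Mdh2 at -0.027 ± 0.11 (0.899). Between them lay Suclg1 at 0.25 ± 0.17, Ogdh at 0.18 ± 0.13 and Cs at 0.14 ± 0.14 (adjusted p 0.331 to 0.522), then Idh3g at 0.065 ± 0.15 and Idh3a at 0.051 ± 0.13 (0.809 and 0.828). Over all genes 19.5% were called, 9.03% higher and 10.5% lower, and 2.42% had separate arrays that were higher at day 7. The median over the 9 genes was 0.14, beside 0.015 over all genes.

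The Gapdh ratio moved with the white day comparison. With it in the fit, none of the 9 was called in limma and 37 of all probe sets passed, against 1595 without it. Idh2 then measured -0.51 (adjusted p = 0.305) and Sucla2 0.81 (0.334), close to their sizes without the ratio, with standard errors of 0.21 and 0.35 in place of 0.12 and 0.20. Without white day 4 arrays 45 and 51, both calls held.

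None of the 9 day changes differed detectably between brown and white cells in limma, where 0.207% of all genes were called. Before adjustment 1 of the 9 had p under 0.05, and the share of all genes under that level was not counted. With the Gapdh ratio in the fit, the 9 differences were 0.14 to 0.60 and none was called (adjusted p at least 0.930). Without it, all 9 differences of the changes, brown minus white, were above 0, from 0.12 ± 0.17 (Mdh2) to 0.48 ± 0.19 (Idh2, 95% interval 0.096 to 0.87, adjusted p = 0.434). Idh3g measured 0.42 (interval -0.057 to 0.90), Idh3a 0.37 (-0.048 to 0.80) and Suclg1 0.32 (-0.21 to 0.85). For Sucla2 the difference was 0.18 (-0.47 to 0.82), and without brown day 4 array 19 it was -0.062. The 9 values share the same arrays and are not independent.

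Array numbers fall into runs of neighbouring numbers, whose meaning is not given. Of these, 6 hold both days, 5 of them 4 consecutive numbers each and 1 only arrays 19 and 22, while white day 4 arrays 45 and 51 stand alone. Within all 3 brown runs and all 3 white runs, Sucla2 was higher at day 7, by 1.01 to 1.33 in brown and 0.50 to 1.37 in white runs. Fh1 was higher at day 7 in every run too, by 0.34 to 0.80 in brown and 0.20 to 0.34 in white runs. Idh2 was lower at day 7 in all 3 white runs, by -0.52 to -0.44, and in brown runs ranged from -0.38 to 0.14. Suclg1 and Idh3g were higher at day 7 in all 6 runs, by 0.47 to 0.76 and 0.34 to 0.83 in brown runs and 0.051 to 0.62 and 0.046 to 0.29 in white runs. With the runs as a random block, 5 members were called in brown cells (Sucla2, Fh1, Suclg1, Idh3g and Idh3a). As a fixed block 7 were called, with Cs and Ogdh added, at unchanged sizes. Over all probe sets, the number called by day in brown cells rose as well, from 1012 without a block. It was 1381 with the random block and 1638 with the fixed block. Fh1 in white cells passed too with the fixed block (0.27, adjusted p = 0.0314). With the random block the day 4 call of Sucla2 between cell types ended (adjusted p = 0.0750). The random block was 1 of 6 settings, of 12 alternatives for that comparison, in which this call ended (adjusted p at most 0.0922). The run of arrays 19 and 22 was below both other brown runs for 5 members. It gave -0.31 for Ogdh against 0.60 and 0.49, -0.086 for Idh3a against 0.56 and 0.55, and -0.015 for Cs against 0.31 and 0.40. Mdh2 measured -0.11 there against 0.19 and 0.10, and Idh2 -0.38 against 0.14 and -0.032. The other 4 members were highest in this run.

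**Figure D4:**
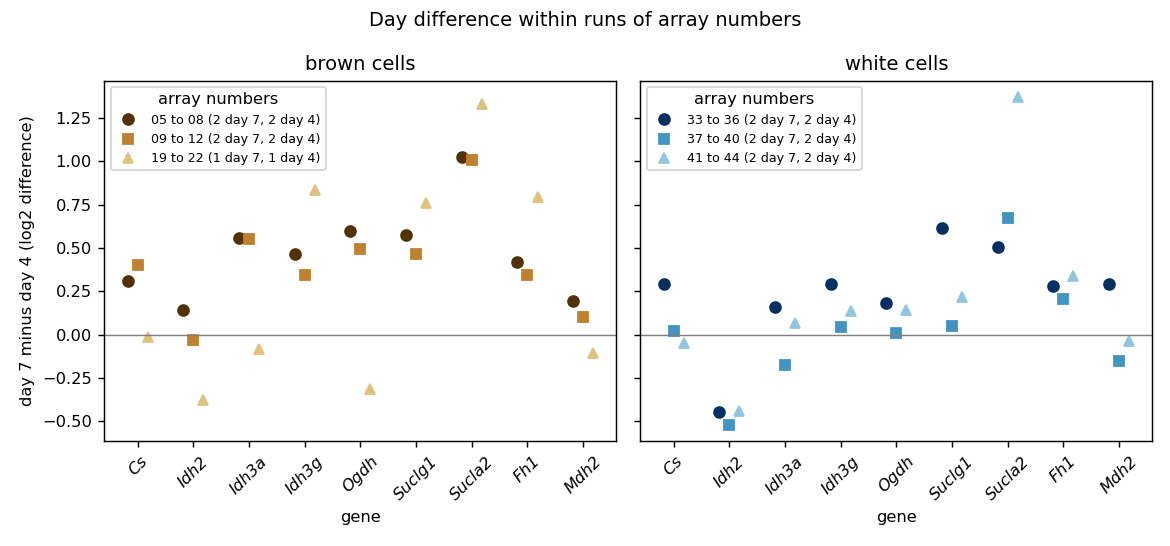
Day 7 minus day 4 log2 difference of each gene within each run of array numbers, for brown cells (left) and white cells (right); each point is a difference of means of 1 or 2 arrays a day, as the legend gives. Sucla2 and Fh1 lie above 0 in all 6 runs, and Idh2 lies below 0 in all 3 white runs.

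Signals of related enzymes were also compared within arrays. The pairs were chosen with these changes known, so their p-values are no independent evidence, and by day only Sucla2 over Suclg2 in both cell types and Idh2 over Idh1 in white cells passed. The log2 signal ratio of Sucla2 over Suclg2, the alternative beta subunits, averaged 0.27 ± 0.27 (SD) on the 5 arrays of brown day 7. On the 5 arrays of brown day 4 it averaged -0.85 ± 0.41 (SD), without overlap (exact permutation p = 0.00794, two-sided, adjusted 0.0265). In white cells it averaged -0.076 ± 0.17 (SD) on 6 arrays at day 7, against -1.14 ± 0.49 (SD) on 8 arrays at day 4 (exact permutation p = 0.00133, adjusted 0.0144). Suclg2 itself was not called by day, at -0.041 ± 0.14 in brown and -0.16 ± 0.12 in white cells (both standard errors). The ratio of Sucla2 over Suclg1 differed by 0.51 between the days in brown cells (exact permutation p = 0.111, adjusted 0.222) and by 0.66 in white cells (exact permutation p = 0.0443, adjusted 0.111), so the difference between the beta and alpha subunit did not pass. The 5 ratios were compared in 4 contrasts, 20 exact tests in all, and only differences of a ratio between groups can be read, since probe sets differ in brightness.

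Mitochondrial forms were set against their cytosolic counterparts in the same way. Idh2 over Idh1 was -0.34 ± 0.35 (SD, n = 5) at brown day 7 and -1.29 ± 0.18 (SD, n = 6) at white day 7, without overlap (exact permutation p = 0.00217, the smallest these group sizes allow, adjusted 0.0144). White day 7 was also below white day 4, at -0.56 ± 0.37 (SD, n = 8; exact permutation p = 0.00167, adjusted 0.0144). The ratio in brown cells at day 4 was -0.12 ± 0.38 (SD, n = 5), not detectably different from white day 4 (exact permutation p = 0.0660, adjusted 0.147). Mdh2 over Mdh1 was higher in brown than in white cells by 0.78 at day 7 (exact permutation p = 0.00649, adjusted 0.0260) and 0.69 at day 4 (exact permutation p = 0.00311, adjusted 0.0155). Idh1 and Mdh1, the cytosolic enzymes, were not called in any comparison. Idh3a over Idh3g, catalytic over regulatory subunit, differed by at most 0.15 in any of the 4 contrasts (exact permutation p at least 0.337, adjusted at least 0.499).

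**Figure D5:**
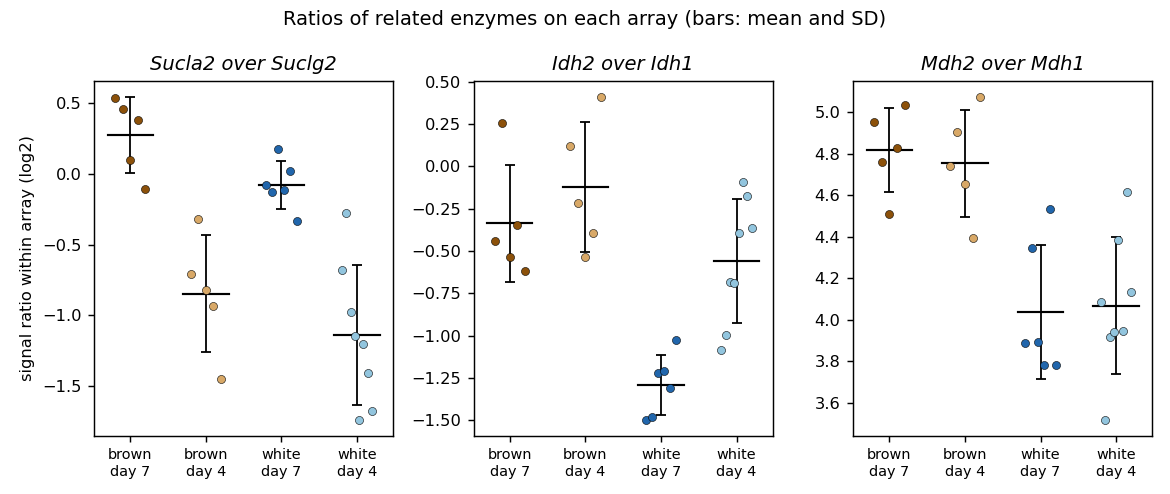
Log2 ratio of the signals of related enzymes on each array, by group, with mean and SD. Sucla2 over Suclg2 is higher at day 7 in both cell types, Idh2 over Idh1 is lowest at white day 7, and Mdh2 over Mdh1 is higher in brown than in white cells on both days.

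The members also varied together from array to array, with one exception. Across the 24 arrays the Pearson correlation of log2 signal had a median of 0.83 over the 36 pairs, from 0.22 (Idh2 with Sucla2) to 0.94 (Idh3g with Suclg1). With group means removed, the median was 0.56 and 33 of 36 pairs were above 0, with Cs and Ogdh at 0.83, Idh3g and Suclg1 at 0.83 and Sucla2 with Mdh2 at -0.40. Sucla2 had a median within-group correlation of 0.041 with the other members, against 0.52 to 0.70 for each of the other 8. These points share arrays, scaling and the runs of array numbers, and the values are descriptions. In brown cells the mean log2 signal of the 9 genes was 10.26 and 10.35 on day 7 arrays 07 and 08 against 9.71 to 9.93 on arrays 11, 12 and 22, and at day 4 it was 9.85 and 9.82 on arrays 05 and 06 against 9.40 to 9.62 on arrays 09, 10 and 19.

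Outside the list, the 8 genes whose log2 signal over the 24 arrays followed the mean standardised profile of the members most closely were Sdhd (r = 0.967), Ndufb6 (0.947), Ndufv1 (0.944), Dlst (0.942), Hadhb (0.940), Ndufa9 (0.938), Cyc1 (0.935) and Cox7a2 (0.934). Dlst and Sdhd belong to the cycle, the Ndu genes encode complex I subunits, Cyc1 and Cox7a2 encode subunits of complexes III and IV, and Hadhb is a subunit of the mitochondrial fatty acid oxidation enzyme. Their choice over the same 24 arrays largely fixes the direction between cell types, so these differences are descriptions. They ran from 0.87 (Cyc1, Ndufv1) to 1.51 (Sdhd) at day 7 and from 0.59 (Ndufb6, Cyc1) to 0.99 (Sdhd) at day 4. Only Hadhb of the 8 was called by day, rising by 1.18 ± 0.20 in brown cells and 0.52 ± 0.17 in white cells. Among the members, Sucla2 followed the mean of the other 8 least closely (r = 0.600) and Idh3a most closely (0.957).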

How the data were processed

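Signal intensities per probe set were made by the authors with MAS5, per the submitters' processing notes, and deposited on a linear scale, already set to a common 2% trimmed mean close to 150. The number of arrays limits the precision. Here all arrays were rescaled to that mean, signals below the 20th percentile over the whole table (8.21) were raised to it, and log2 was taken. A probe set was tested when at least 5 arrays put it past their own 40th percentile, and 66 control probe sets were left out. The platform annotation names a single symbol for 10855 probe sets, several symbols for 396 and no symbol for 1237.

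Limma 3.58.1 in R 4.3.3 fitted the means of all 4 groups at once (lmFit, eBayes with an intensity trend, 20 residual degrees of freedom), and ratios were tested by exact permutation. The fit was tested on simulated data with independent noise on each array. These held no runs of array numbers and no shift in the Gapdh ratio, so that test does not cover either. Tests were two-sided. Named genes were all members, up to 4 called genes with the largest change per list and contrast, and the 8 genes most alike in profile. Genes named beyond this (Suclg2, Idh1 and Mdh1 as ratio partners, and Ucp1 among the lineage markers) were chosen after their values were seen. The members and lists were chosen with earlier results of these data known. No array number occurs in more than 1 group, so arrays were not paired one to one. Runs of neighbouring numbers, most of which hold both days, were fitted as a block among the alternatives.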

Additional observations from a re-analysis of the deposited data

How the results depend on the processing

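Of 558 member changes recomputed under 13 other settings, 518 kept direction and side of the threshold, as did 1030 of 1080 with 1 array left out. The causes of the changes below were not tested. Groups share no array number, so arrays were blocked by run of numbers, not paired one to one.

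The number of members called by day in brown cells (2) was 4 with quantile normalization or array weights, 1 with median scaling, no filter, no intensity trend or only the groups compared, and 5 and 7 with runs as a random and a fixed block (1 to 4 leaving out 1 array). In white cells 2 became 0 with the Gapdh ratio, and between cell types at day 7 9 became 5 (2 to 2 and 8 to 9 leaving out 1 array; 7 to 8 at day 4). All probe sets called by day in brown cells (1012) were 1665 with array weights, and 1381 and 1638 with the random and fixed block. They were 672 (without brown day 7 array 08) to 1170 leaving out 1 array. In white cells 1595 became 1046 without arrays 45 and 51, 37 with the Gapdh ratio and 1134 to 1910 leaving out 1 array, and between cell types at day 7 2112 became 274 with the Gapdh ratio. For the difference of the day changes, 18 became 6 with median scaling, 10 with no floor or no filter, 35 with the high floor, 9 with the stricter filter, 11 with no trend, 45 with array weights, 5 with the Gapdh ratio, 37 and 61 with the random and fixed block, and 7 to 23 leaving out 1 array.

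Members that turned were none of those called. In white cells by day, Idh3a was -0.016 and Idh3g -0.0025 with median scaling, Cs -0.19, Idh3a -0.18 and Ogdh -0.18 with the Gapdh ratio, and Mdh2 0.033 without arrays 45 and 51 and with the fixed block. Leaving out 1 array, brown Idh2 ran from -0.12 to 0.075, white Idh3a from -0.015 to 0.13, white Idh3g from -0.0045 to 0.15, white Mdh2 from -0.077 to 0.019, and the Sucla2 difference of changes from -0.062 to 0.35. Median scaling moved the share of called probe sets that were higher in brown at day 4 from 47% of 1933 to 58% of 1875. For the difference of the day changes, the share above 0 among called probe sets moved from 77.8% of 18 to 66.7% of 6.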
